A study of Mus musculus with 6 samples.

Results

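The nuclear genes for the subunits of respiratory complex I were examined in quadriceps muscle of control and miDrp1KO mice 3 weeks after deletion of *Dnm1l*, the gene for the mitochondrial fission protein Drp1. Members were taken by symbol: *Nduf* followed by a, b, c, s or v and a digit, together with *Ndufab1*, with assembly factors (*Ndufaf* symbols) left out. This gave 38 of the 27179 genes listed. The 3 miDrp1KO libraries (A, E and F) came from mice carrying floxed *Dnm1l* alleles and HSA-MerCreMer, a Cre recombinase driven by the human *ACTA1* promoter and switched on by tamoxifen in skeletal muscle fibers, and the 3 control libraries (B, C and D) came from mice of genotype Control f/f, with the floxed alleles. According to the methods of the study, both genotypes received tamoxifen at 3 months of age, so the controls lacked the active recombinase rather than the drug, and the floxed line had been backcrossed to C57BL/6J. The same methods name normal chow and a high-fat diet, without tying either to the sequenced mice. Since Cre acts only in muscle fibers, the other cells of the tissue keep *Dnm1l*, and in a bulk sample fewer cells of a type and less RNA per cell cannot be told apart.

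Complex I (NADH:ubiquinone oxidoreductase) is the entry point of the respiratory chain for electrons from NADH. It is an L-shaped assembly in the inner mitochondrial membrane: a matrix arm oxidizes NADH in the N module and passes electrons along iron-sulfur clusters to ubiquinone in the Q module, and a membrane arm pumps protons through modules built around the mitochondrially encoded ND subunits. The conserved core subunits carry out catalysis, and those of the matrix arm are nuclear genes. The accessory subunits surround the core and are needed for assembly and stability. Skeletal muscle, and oxidative fibers above all, holds much of this enzyme. The mitochondrially encoded subunits are listed at 0 in all 6 libraries, so the membrane-arm core could not be compared. *Ndufb1* was not analysed here, because no gene listed carries that symbol.

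The libraries held 13989588 to 62042255 counts. Of the counts, 15.6, 7.95 and 3.36% in controls B, C and D fell on ribosomal RNA genes, and 23.0, 1.47 and 24.4% in miDrp1KO A, E and F. *Dnm1l* was at 156, 114 and 140 CPM (counts scaled to each library's size with TMM factors) in the controls and at 70.6, 81.3 and 66.2 CPM in miDrp1KO, without overlap and in the direction of the labels (log2 fold change −0.91, SE 0.18; adjusted p = 0.362, edgeR; exact permutation p = 0.1, the smallest possible with 3 against 3). Markers of muscle fibers, the labelled tissue, were present in every library, the 10 of them summing to 150230 to 165934 CPM in controls and 74222 to 124761 CPM in miDrp1KO.

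Of the 29 accessory subunits 25 had a log2 fold change above 0 in miDrp1KO, where 52.0% of all genes tested did. Of the 7 nuclear core subunits 3 did. The split by role was looked at after the values were seen. Accessory transcripts are also shorter, with a median of 763 bases against 1623 for the core. With a correction for length and GC content the accessory median went from 0.38 to 0.17 and the core median from −0.21 to −0.26. No member passed the adjusted threshold of 0.05 in edgeR (lowest adjusted p = 0.362), where 0.0121% of the 16483 genes tested did. All 38 members passed the low-count filter, with 46 or more counts in every library. Of these, 30 had a log2 fold change above 0 and 8 below, and their median was 0.33 against 0.017 for all genes tested. At an unadjusted p under 0.05, 10 members were higher (26.3%, where 4.68% of all genes were) and 0 were lower (6.22% of all genes). Many complex I transcripts are short, and among all genes with transcripts up to 800 bases 16.3% were higher at an unadjusted p and 14.5% without overlap. DESeq2 with its independent filtering called 2 of the 34 members to which it gave an adjusted p, *Ndufc2* and *Ndufb11*, where it called 4.23% of the 2860 genes with one. DESeq2 without that filtering and limma voom called 0 members (0.121 and 0.00607% of all genes). The number higher at an unadjusted p was 4 without control D (3.21% of all genes) and 18 without miDrp1KO A (8.55%). The groups did not overlap for 10 members: 9 were higher in every miDrp1KO library than in every control library (23.7%, where 7.67% of all genes were) and 1 was lower (10.3% of all genes). With 1 library left out fewer values are compared and more genes separate. Without control B, 14 members were higher without overlap (36.8%, where 15.3% of all genes were), and without miDrp1KO A, 20 were (52.6%, against 20.2%). The number lower without overlap became 0 without control B (13.3% of all genes), 5 without control C (15.6%) and 2 without miDrp1KO F (12.6%).

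**Figure D1:**
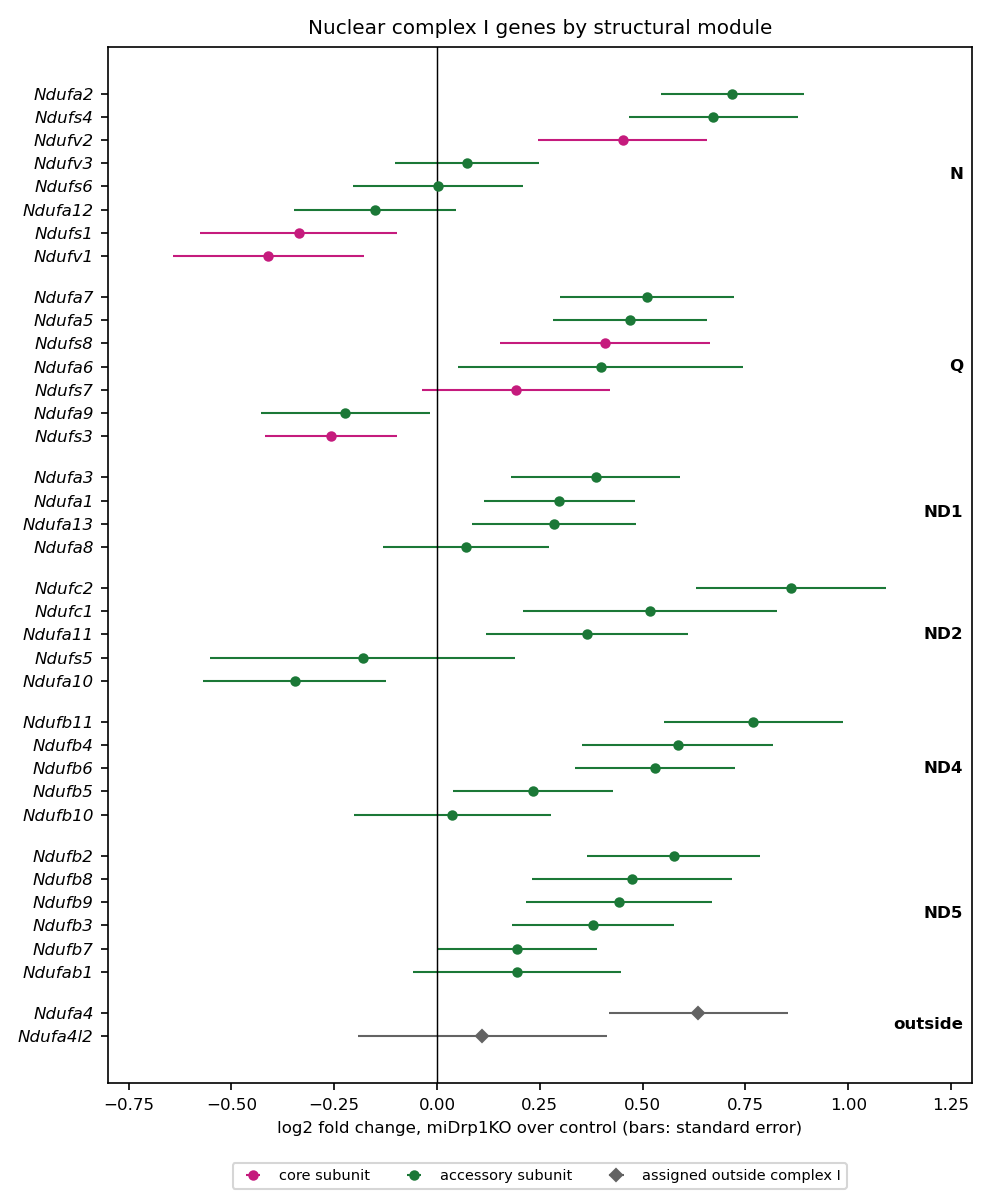
Log2 fold change (miDrp1KO over control, edgeR) of the members described singly, by structural module, with bars for the standard error; magenta marks the core subunits, green the accessory subunits and grey the pair assigned outside complex I. The ND1, ND4 and ND5 modules lie wholly to the right of 0 in this fit, although 5 of their 15 members changed sign under an alternative, and the core subunits lie on both sides.

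The 4 promoters that follow were chosen to set higher and lower members side by side: *Ndufc2* has the highest fold change, *Ndufs4* was higher without overlap, *Ndufs3* was the member lower without overlap, and *Ndufa9* was a lower accessory subunit that shares a motif with *Ndufs4*. Each runs from 250 bases before to 50 bases after the RefSeq start (GRCm38.p6), 5′ to 3′ on the gene's strand, and capitals mark the letters of a searched motif on either strand. The windows lie at chr7:97399753-97400052 (plus strand) for *Ndufc2*, chr13:114388045-114388344 (minus strand) for *Ndufs4*, chr2:90904672-90904971 (minus strand) for *Ndufs3* and chr6:126849095-126849394 (minus strand) for *Ndufa9*.
Ndufc2: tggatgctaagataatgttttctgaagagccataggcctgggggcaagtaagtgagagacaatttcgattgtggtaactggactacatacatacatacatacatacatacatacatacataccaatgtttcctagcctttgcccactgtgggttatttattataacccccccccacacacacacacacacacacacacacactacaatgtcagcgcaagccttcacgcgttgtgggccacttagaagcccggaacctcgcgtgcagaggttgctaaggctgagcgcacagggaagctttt
Ndufs4: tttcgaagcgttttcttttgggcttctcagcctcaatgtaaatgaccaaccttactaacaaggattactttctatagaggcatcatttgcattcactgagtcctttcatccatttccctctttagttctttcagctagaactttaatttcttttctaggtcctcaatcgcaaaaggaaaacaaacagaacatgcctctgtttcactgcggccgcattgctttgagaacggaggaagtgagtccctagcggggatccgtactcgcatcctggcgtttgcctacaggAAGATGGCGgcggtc
Ndufs3: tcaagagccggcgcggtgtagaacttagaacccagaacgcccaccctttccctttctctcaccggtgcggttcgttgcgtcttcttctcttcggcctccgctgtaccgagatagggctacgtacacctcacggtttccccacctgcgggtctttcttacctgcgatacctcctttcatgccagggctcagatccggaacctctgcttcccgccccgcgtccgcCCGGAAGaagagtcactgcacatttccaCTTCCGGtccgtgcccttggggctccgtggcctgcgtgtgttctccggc
Ndufa9: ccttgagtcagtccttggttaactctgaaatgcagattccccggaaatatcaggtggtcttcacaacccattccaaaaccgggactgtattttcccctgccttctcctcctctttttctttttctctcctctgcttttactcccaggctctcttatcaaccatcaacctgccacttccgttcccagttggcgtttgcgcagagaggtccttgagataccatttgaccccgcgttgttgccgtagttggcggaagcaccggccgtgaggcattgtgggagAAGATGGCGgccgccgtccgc

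Nuclear genes of the respiratory chain are known for promoters that bind NRF1, YY1, ETS-family factors and estrogen-related receptors, so each RefSeq promoter was searched on both strands for 1 set of letters per factor. RefSeq promoters were matched for 33 members and 12281 tested genes. The YY1 letters AAGATGGCG were in 5 member promoters (15.2%, against 3.0% of tested genes): *Ndufs4*, *Ndufc1*, *Ndufs7*, *Ndufs6* and *Ndufa9*. These 5 had log2 fold changes of 0.67, 0.52, 0.19, 0.0023 and −0.22, so the letters occurred on both sides of 0. In all 5 the letters lay within the 50 bases after the RefSeq start. They contain ATG, and whether it is the start codon of the protein was not tested. The NRF1 letters GCATGCGC were in 3 (9.09%, against 5.27%), the ERR letters AAGGTCA in 3 (9.09%, against 4.0%) and the ETS letters CCGGAAG in 4 (12.1%, against 17.3%). *Ndufs3* held the ETS letters on both strands, and *Ndufc2* held none of the 4. Of the 8 matched members that were higher without overlap, 1 held the YY1 letters, 1 the ERR letters, 1 the ETS letters and 0 the NRF1 letters. The motifs have 7 to 9 letters, none contains another, and a match describes the sequence only.

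The 7 nuclear core subunits carry the electron path, and their median log2 fold change was −0.21, with 4 below and 3 above 0. NADH is oxidized at *Ndufv1*, which binds the flavin. *Ndufv1* was at 258, 145 and 200 CPM in controls B, C and D and at 126, 150 and 177 CPM in miDrp1KO A, E and F (log2 fold change −0.41, SE 0.23; adjusted p = 0.552, edgeR), the lowest fold change of all members. The groups overlapped, since control C lay below miDrp1KO E and F. *Ndufs1*, the large iron-sulfur subunit of the N module, also overlapped between the groups. It was at 452, 251 and 345 CPM in controls and at 256, 325 and 249 CPM in miDrp1KO (−0.34, SE 0.24; adjusted p = 0.632, edgeR). For both genes control B was the highest library of the 6. Without it the log2 fold change was −0.17 for *Ndufv1* and −0.089 for *Ndufs1*. Leaving out control C instead gave −0.62 for *Ndufv1* and −0.55 for *Ndufs1*. *Ndufv2*, the small iron-sulfur partner of *Ndufv1*, went the other way, at 268, 246 and 229 CPM in controls and 262, 367 and 387 CPM in miDrp1KO (0.45, SE 0.21; adjusted p = 0.459, edgeR), with miDrp1KO A inside the control range.

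The Q module hands the electrons to ubiquinone. *Ndufs7*, which holds the last iron-sulfur cluster before ubiquinone, was at 132, 115 and 128 CPM in controls and 110, 122 and 198 CPM in miDrp1KO (0.19, SE 0.23; adjusted p = 0.794, edgeR). Only miDrp1KO F was above the controls for *Ndufs7*, and without it the log2 fold change was −0.092. *Ndufs8*, a ferredoxin-like subunit, was at 105, 83.8 and 89.3 CPM in controls and 81.3, 114 and 174 CPM in miDrp1KO (0.41, SE 0.26; adjusted p = 0.581, edgeR). Its log2 fold change was 0.094 without miDrp1KO F and 0.16 with the slow fiber score as a covariate. *Ndufs3*, a core subunit with no cofactor, was the member whose miDrp1KO libraries all lay below the controls. It was at 83.0, 75.4 and 72.6 CPM in controls and 63.8, 58.2 and 71.1 CPM in miDrp1KO (−0.26, SE 0.16; adjusted p = 0.577, edgeR; exact permutation p = 0.1). Its closest pair, control D and miDrp1KO F, differed by less than the SD within either group (5.39 CPM in controls and 6.50 CPM in miDrp1KO, n = 3 each), and the groups overlapped when scaled by upper quartile.

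**Figure D2:**
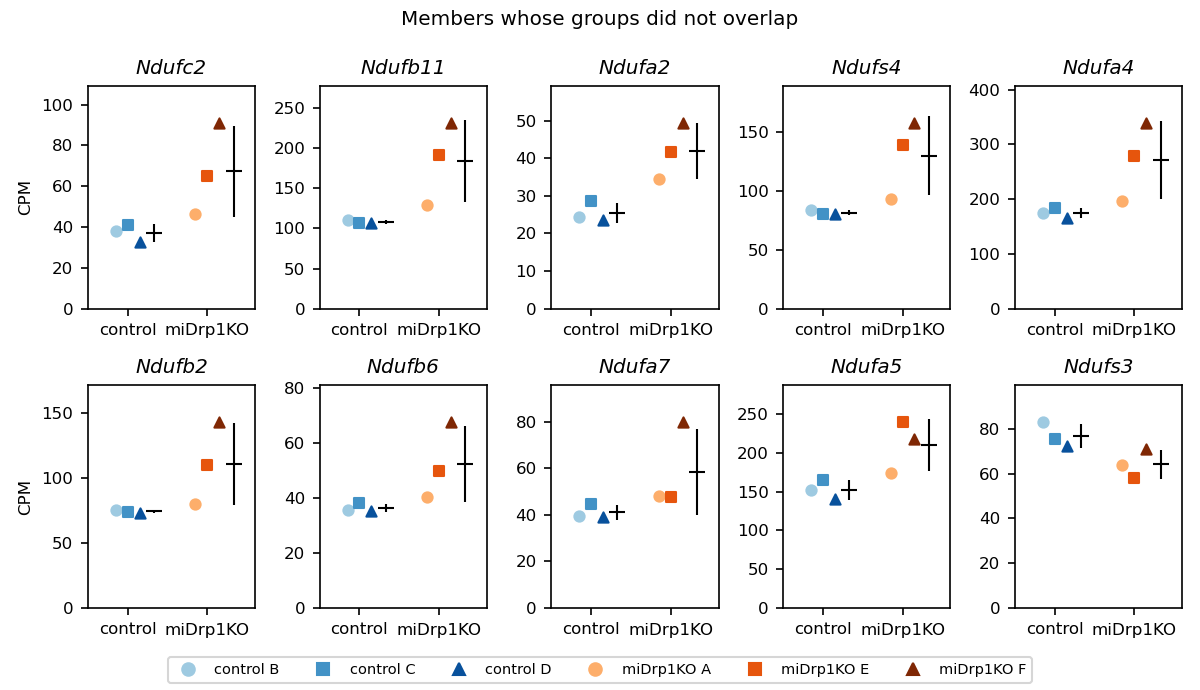
CPM of the 10 members whose groups did not overlap, in each library, with the mean and SD of the 3 libraries of a group in black and every axis starting at 0. For the 9 higher members miDrp1KO A lies nearest to the controls or level with E, and for *Ndufs3* miDrp1KO F does.

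The remaining subunits of the N module are accessory and sit on the NADH end of the matrix arm. *Ndufs4*, added late in assembly and known from mice that model Leigh syndrome when it is lost, was at 84.2, 80.0 and 80.5 CPM in controls and 92.9, 139 and 158 CPM in miDrp1KO (0.67, SE 0.21; adjusted p = 0.379, edgeR; exact permutation p = 0.1). *Ndufa2*, a thioredoxin-fold subunit, was at 24.3, 28.5 and 23.6 CPM in controls and 34.5, 41.6 and 49.3 CPM in miDrp1KO (0.72, SE 0.17; adjusted p = 0.362, edgeR; exact permutation p = 0.1). Both were higher in every miDrp1KO library, and for both, A was the lowest and F the highest of the 3. *Ndufa12*, *Ndufs6* and *Ndufv3* had log2 fold changes of −0.15, 0.0023 and 0.073 and overlapping groups. The value of *Ndufa12* was −0.0011 without control C and −0.0048 without miDrp1KO E. *Ndufa12* and *Ndufs6* are, like *Ndufs4*, put in place late in assembly. Over the 8 members of the N module the median was 0.038, the lowest of the modules.

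Of the 4 accessory subunits of the Q module, *Ndufa5* and *Ndufa7* were higher in every miDrp1KO library. *Ndufa5* was at 152, 165 and 140 CPM in controls and 174, 239 and 218 CPM in miDrp1KO (0.47, SE 0.19; adjusted p = 0.416, edgeR; exact permutation p = 0.1). *Ndufa7* was at 39.6, 44.6 and 39.0 CPM in controls and 48.1, 47.7 and 79.8 CPM in miDrp1KO (0.51, SE 0.21; adjusted p = 0.424, edgeR; exact permutation p = 0.1). For *Ndufa7* libraries A and E were close to control C while F was far above it, and without F its log2 fold change was 0.24. *Ndufa6*, an LYR-motif protein that anchors the acyl carrier protein, varied widely within the groups, at 42.1, 85.2 and 41.7 CPM in controls and 94.5, 48.8 and 78.9 CPM in miDrp1KO (0.40, SE 0.35). When a library was left out, its log2 fold change ran from 0.21 without miDrp1KO A to 0.80 without control C. With the share of ribosomal RNA as a covariate it was 0.13. *Ndufa9*, at the junction with the membrane arm, was at 172, 112 and 137 CPM in controls and 106, 113 and 141 CPM in miDrp1KO (−0.22, SE 0.21). Its log2 fold change was −0.029 without control B, −0.38 without control C and −0.34 without miDrp1KO F. The Q module as a whole had 5 of 8 members above 0 and a median of 0.29.

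In the ND1, ND4 and ND5 modules of the membrane arm each of the 15 members had a log2 fold change above 0. Of these, *Ndufa1*, *Ndufa8*, *Ndufb7* and *Ndufb10* were below 0 with the length and GC correction (−0.057, −0.095, −0.091 and −0.21), and *Ndufa8*, *Ndufb10* and *Ndufab1* under other alternatives, with −0.20 for *Ndufb10* without miDrp1KO F. The medians were 0.29 for ND1 (4 members), 0.53 for ND4 (5 members) and 0.41 for ND5 (6 members). In the ND2 module 3 of 5 members were above 0, with a median of 0.36 that spans the highest and the second-lowest values of all. *Ndufc2*, a short membrane-spanning subunit, was at 37.9, 41.1 and 32.5 CPM in controls and 46.6, 64.9 and 90.9 CPM in miDrp1KO, a 1.82-fold difference (0.86, SE 0.23; adjusted p = 0.362, edgeR; exact permutation p = 0.1). DESeq2 gave it an adjusted p of 0.0338, and over all alternatives the adjusted p ran from 0.0338 to 0.877. *Ndufa10*, a subunit with the fold of a nucleoside kinase, was at 206, 129 and 171 CPM in controls and 120, 114 and 164 CPM in miDrp1KO (−0.35, SE 0.22; adjusted p = 0.589, edgeR). Its log2 fold change was −0.16 without control B, −0.53 without control C and −0.50 without miDrp1KO F. Of the other ND2 members, *Ndufc1* (0.52, SE 0.31) and *Ndufa11* (0.36, SE 0.25) had positive values, which were 0.24 and 0.0092 without miDrp1KO F. With the slow fiber score as a covariate *Ndufc1* was at 0.15. *Ndufs5*, a CHCH-domain subunit facing the intermembrane space, had a negative value (−0.18, SE 0.37). *Ndufs5* was at 97.9, 147 and 102 CPM in controls and 160, 55.7 and 89.8 CPM in miDrp1KO, so A was the highest library and E the lowest.

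In the ND4 module, *Ndufb11*, encoded on the X chromosome, was at 111, 107 and 106 CPM in controls and 129, 191 and 231 CPM in miDrp1KO, a 1.70-fold difference (0.77, SE 0.22; adjusted p = 0.368, edgeR; exact permutation p = 0.1). The SD was 2.31 CPM in the controls and 51.5 CPM in miDrp1KO (n = 3 each). DESeq2 gave an adjusted p of 0.0354, and over all alternatives it ran from 0.0354 to 0.877. *Ndufb6* was at 35.7, 38.1 and 35.2 CPM in controls and 40.2, 49.7 and 67.4 CPM in miDrp1KO (0.53, SE 0.19; adjusted p = 0.393, edgeR). Its log2 fold change was 0.33 without miDrp1KO F and 0.26 with the length and GC correction. *Ndufb4* was at 45.3, 68.1 and 46.0 CPM in controls and 76.9, 59.9 and 102 CPM in miDrp1KO (0.58, SE 0.23; adjusted p = 0.415, edgeR) and overlapped through control C. *Ndufb5* and the CHCH-domain subunit *Ndufb10* had smaller values, 0.23 (SE 0.19) and 0.037 (SE 0.24).

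At the far end of the membrane arm, *Ndufb2* of the ND5 module was at 75.6, 74.1 and 73.2 CPM in controls and 79.7, 110 and 143 CPM in miDrp1KO (0.58, SE 0.21; adjusted p = 0.393, edgeR; exact permutation p = 0.1). *Ndufb9*, an LYR-motif protein and the member with the most counts per kilobase of transcript in the controls, was at 353, 318 and 325 CPM in controls and 338, 437 and 579 CPM in miDrp1KO (0.44, SE 0.23; adjusted p = 0.509, edgeR). It overlapped because miDrp1KO A lay between the controls. The log2 fold change of *Ndufb9* was 0.25 without miDrp1KO F and 0.19 with the length and GC correction. *Ndufb8*, often used as the marker of complex I on protein blots, had tight controls at 150, 150 and 145 CPM but spread from 143 to 289 CPM in miDrp1KO (0.47, SE 0.24), and its log2 fold change was 0.17 without miDrp1KO F. *Ndufb3* (0.38, SE 0.20), *Ndufb7* (0.19, SE 0.19) and *Ndufab1* (0.19, SE 0.25) completed the module, and the last 2 were at 0.0085 and 0.093 without miDrp1KO F. *Ndufab1* is the mitochondrial acyl carrier protein, which also serves fatty acid synthesis and iron-sulfur cluster formation. It was at 8.50 to 14.1 CPM in controls and had the fewest counts per kilobase of all members, with a transcript taken as 3479 bases. In CPM *Ndufa4l2* was lower. In the ND1 module, at the heel of the complex, *Ndufa3* (0.39, SE 0.21), *Ndufa1* (0.30, SE 0.18), *Ndufa13* (0.28, SE 0.20) and *Ndufa8* (0.071, SE 0.20) overlapped between the groups.

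A pair of members named for complex I are assigned elsewhere. *Ndufa4* is now placed in cytochrome c oxidase (complex IV), and it was at 175, 184 and 166 CPM in controls and 197, 278 and 339 CPM in miDrp1KO, a 1.55-fold difference (0.63, SE 0.22; adjusted p = 0.389, edgeR; exact permutation p = 0.1). With the length and GC correction *Ndufa4* had a log2 fold change of 0.30. Its paralog *Ndufa4l2*, known as a hypoxia-induced gene, was near 4 CPM, at 4.31, 3.35 and 4.10 CPM in controls and 2.38, 4.63 and 5.71 CPM in miDrp1KO (0.11, SE 0.30; adjusted p = 0.924, edgeR). Its sign changed under 4 of the alternatives.

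**Figure D3:**
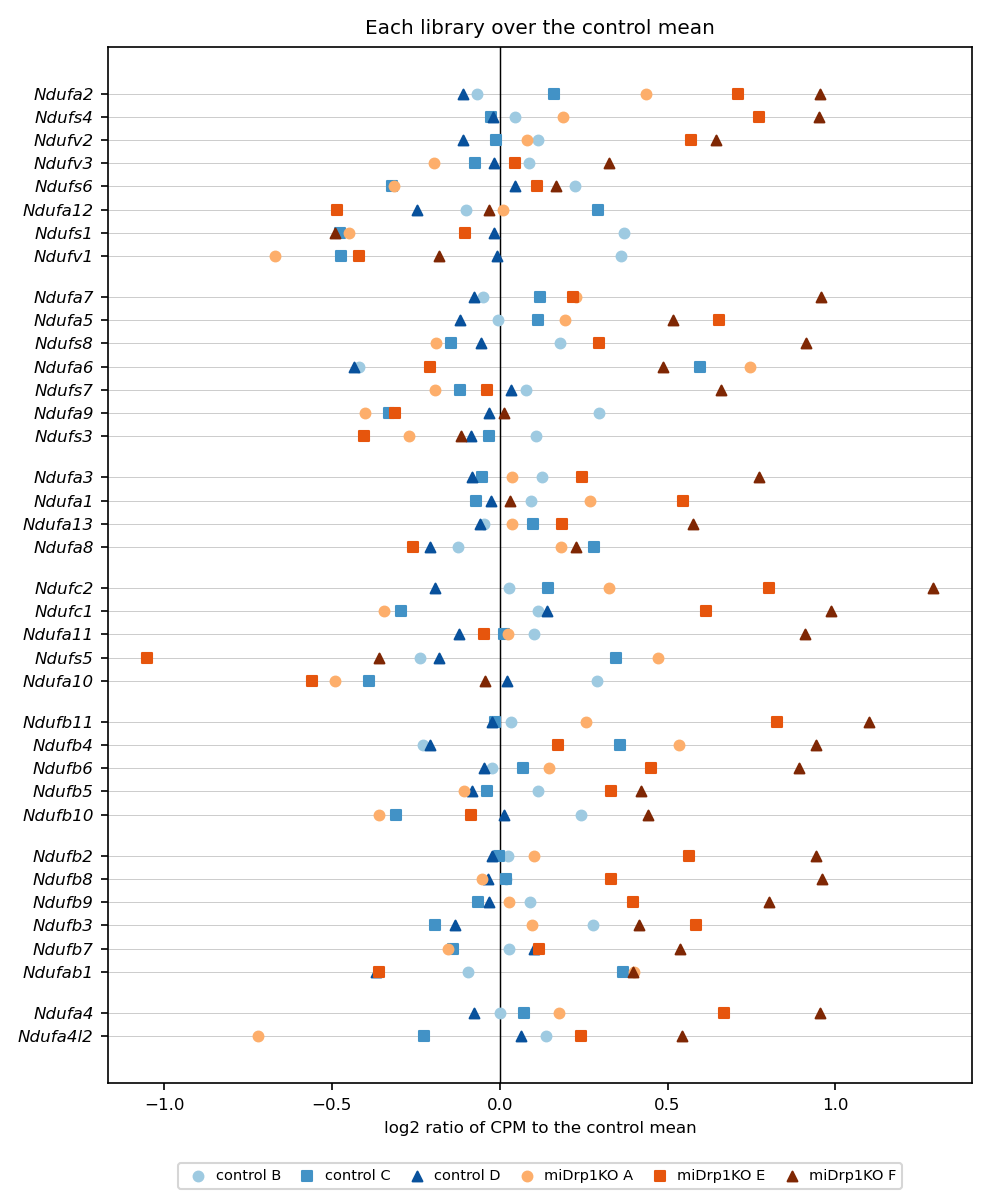
Log2 ratio of each library's CPM to the mean of the 3 controls, for the same members, in the order of the plot by module; blue symbols are controls and orange to brown symbols miDrp1KO. The brown triangles of miDrp1KO F are the farthest right for 23 of them, and miDrp1KO A lies on both sides of the controls.

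The miDrp1KO libraries were unlike each other. The median ratio of a member to its control mean was 1.02 in A, 1.15 in E and 1.45 in F, and 1.06, 0.980 and 0.965 in controls B, C and D. F was the highest of the 6 libraries for 23 members. It was above all controls for 26 members and below all for 3, E for 21 and 5, and A for 14 and 14. Summed over the members, the controls held 4983, 4250 and 4438 CPM and miDrp1KO 4341, 5163 and 6306 CPM, so the sums overlapped. The median log2 fold change was 0.14 without F and 0.41 without A. Without F the log2 fold change of 23 members moved by over 1.5 times, for 16 of them to a smaller value of the same sign and for 5 across 0. Leaving out any other library moved 8 to 16 members by as much.

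Set apart by role, the accessory median lay above the core median in each miDrp1KO library and in control C, while the single subunits of both kinds overlapped. The median core ratio to the control mean was 0.828, 0.931 and 1.05 in A, E and F, and the median accessory ratio was 1.07, 1.16 and 1.45. In controls B, C and D the core ratios were 1.13, 0.903 and 0.988 and the accessory ratios 1.02, 0.998 and 0.960. The ratio of summed accessory to summed core CPM needs no scaling between libraries but was not corrected for transcript length. It was 1.84, 2.43 and 1.98 in the controls and 2.57, 2.46 and 2.69 in miDrp1KO. The groups did not overlap in this ratio, although control C and miDrp1KO E were close. The fitted medians were −0.21 for the 7 core and 0.38 for the 29 accessory subunits, a difference of 0.59. Over the 17 alternatives the core median ran from −0.29 to −0.077, the accessory median from 0.17 to 0.53 and their difference from 0.42 to 0.64. The lowest difference, 0.42, was without miDrp1KO F, and with the length and GC correction it was 0.43. This split was looked at after the values were seen and is given as a description.

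**Figure D4:**
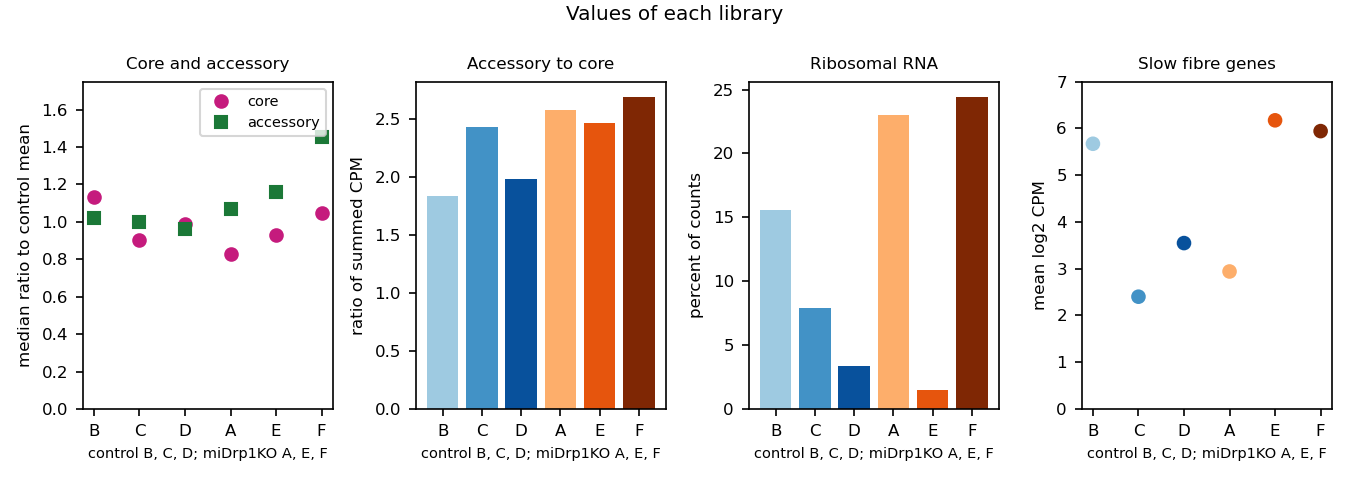
For each library, the median ratio of core and accessory subunits to the control mean, the ratio of summed accessory to summed core CPM, the percent of counts on ribosomal RNA genes, and the mean log2 CPM of slow fiber genes. The accessory symbol lies above the core symbol in all 3 miDrp1KO libraries and in control C, and ribosomal RNA and slow fiber values differ widely within both groups.

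Several properties of the libraries and transcripts moved with these values. Short transcripts were higher in miDrp1KO across all genes: those up to 800 bases had a median log2 fold change of 0.27, those of 800 to 1500 bases 0.091 and longer ones −0.015. The members in the same classes had medians of 0.39 (16 members), 0.23 (13 members) and 0.073 (9 members). At an unadjusted p under 0.05, 5, 3 and 2 members of these classes were higher, where 16.3, 6.12 and 4.04% of all genes in them were. Without overlap, 5, 2 and 2 were higher, where 14.5, 8.65 and 7.17% of all genes were. Complex I accessory transcripts are short, with a median of 763 bases against 1623 for the core. Over the 38 members, which share libraries, Spearman's rho of log2 fold change was −0.30 with transcript length and −0.32 with GC content. With a correction for length and GC content, chosen after seeing the data, the median was 0.11 over all members, 0.17 for the accessory and −0.26 for the core subunits, and 6 members were higher and 2 lower at an unadjusted p under 0.05 (3.8 and 9.07% of all genes). The accessory subunits longer than 800 bases had a median of 0.26 before and 0.17 after that correction, against 0.39 and 0.13 for the shorter ones. The longer set depends on the transcript chosen for each gene, as for *Ndufb2* (4371 bases) and *Ndufab1* (3479 bases).

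**Figure D5:**
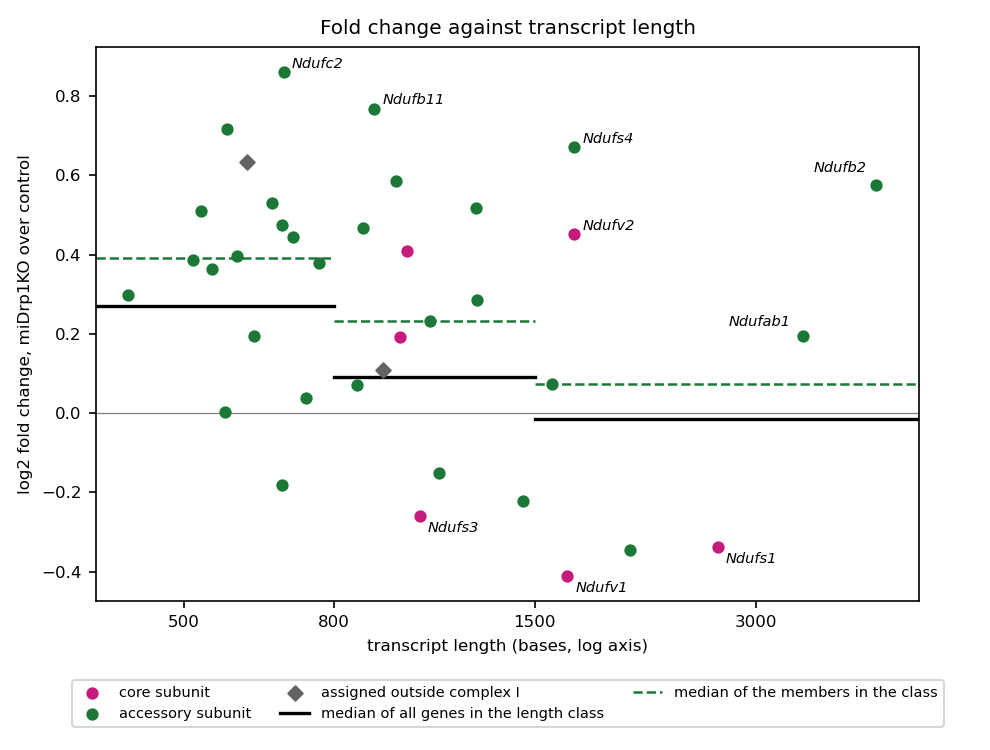
Log2 fold change of the members described singly against the length of its transcript on a log axis, with solid lines for the median of all genes in 3 length classes and dashed lines for the median of all members. In each class the dashed line lies above the solid line, by 0.12, 0.14 and 0.088.

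The fiber makeup of the samples also varied. The mean log2 CPM of 11 slow fiber genes, which mark oxidative fibers, was 5.67, 2.4 and 3.55 in controls B, C and D and 2.94, 6.17 and 5.94 in miDrp1KO A, E and F, so the miDrp1KO libraries with the higher member levels, E and F, were also those with high slow fiber values. Control B had the highest slow fiber value of the controls and also their highest summed member CPM. The slow fiber markers summed to 168 to 1408 CPM in controls and 298 to 1239 CPM in miDrp1KO, and 10 of the 11 had a log2 fold change above 0. The exception, *Actn2* (−0.56), weighed heavily in the sums, with 839 CPM in control B and 388 CPM in miDrp1KO E. The 10 fast fiber markers summed to 138319 to 156799 CPM in controls and 69980 to 120713 CPM in miDrp1KO, with 9 of 10 below 0. The slow fiber score entered as a covariate gave a member median of 0.23 with 7 members higher and 3 lower at an unadjusted p (4.45 and 6% of all genes). With the share of ribosomal RNA as a covariate instead, the median was 0.24, with 7 and 0 (3.76 and 4.58% of all genes). The 8 adipocyte markers were all below 0 (455 to 735 CPM in controls and 290 to 422 CPM in miDrp1KO), the 7 fibroblast markers all above 0 (1411 to 1869 and 1527 to 2640 CPM), and the 9 macrophage markers summed to 170 to 309 and 252 to 283 CPM. Endothelial (7), peripheral nerve (6) and blood (4) markers had medians of −0.16, 0.43 and 0.12. No defining marker of these lists was at 0. The part of the other cell types in the member values was not tested.

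Other genes of oxidative phosphorylation gave a frame for the members. The 15 complex IV subunits had a median log2 fold change of 0.38, with 13 above 0 and 4 higher without overlap. The 17 ATP synthase genes had 0.16, with 14 above 0 and 6 higher without overlap, and the 8 tested complex III subunits had 0.21, with 6 above 0 and 1 higher. The 4 complex II subunits had 0.012, with 1 lower without overlap. Of all genes tested, 52.0% had a log2 fold change above 0, 7.67% were higher without overlap and 10.3% lower. The summed ATP synthase level was 5341 ± 942 CPM in controls and 4978 ± 891 CPM in miDrp1KO (mean ± SD, n = 3 each), and the groups overlapped.

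The 19 complex I assembly factors tested, which build the complex without staying in it, had a median of 0.051, with 11 above and 8 below 0. None passed the adjusted threshold in edgeR, and 1 was higher and 0 lower at an unadjusted p under 0.05 (4.68 and 6.22% of all genes). *Ndufaf8*, a partner of the methyltransferase-like factor *Ndufaf5*, was at 2.08, 1.97 and 2.08 CPM in controls and 2.58, 3.14 and 4.70 CPM in miDrp1KO (0.76, SE 0.29; adjusted p = 0.402, edgeR). *Tmem186* and *Tmem126b* belong to the same assembly intermediate for the membrane arm and differed in sign. *Tmem186* was at 22.5, 17.9 and 20.8 CPM in controls and 16.4, 16.9 and 15.4 CPM in miDrp1KO (−0.33, SE 0.16; adjusted p = 0.470, edgeR). *Tmem126b* was at 8.76, 12.8 and 8.11 CPM in controls and 13, 12.8 and 13.6 CPM in miDrp1KO (0.42, SE 0.20; adjusted p = 0.476, edgeR). Neither overlapped between the groups, although control C and miDrp1KO E were level at this precision for *Tmem126b*.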

How the data were processed

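RNA-seq counts from quadriceps of 3 control and 3 miDrp1KO mice were used. Per the methods, RNA was depleted of ribosomal RNA, prepared with a stranded kit, and sequenced in pools, and Rsubread aligned the reads to GRCm38 and counted them per gene; the strand setting, the handling of near-identical copies and pool membership are not given in the sources used here. The authors deposited raw counts per gene, without normalization. Here edgeR 4.0.16 (TMM, filterByExpr, robust quasi-likelihood, Benjamini-Hochberg adjustment over 16483 genes, threshold 0.05; R 4.3.3) was fitted, with a biological coefficient of variation of 0.252. The code was also run on simulated counts with a common spread for all genes, which does not test how it handles differences between these libraries. DESeq2 1.42.0, limma voom 3.58.1, other scalings, filters, covariates and leave-one-out fits were alternatives. Exact permutation tests were two-sided. Lengths came from the longest principal GENCODE transcript (90.0% of tested genes), and CPM used TMM library sizes. The members, modules and lists were chosen with earlier results of these data known. Named by rule were the core subunits, *Ndufa4*, *Ndufa4l2*, members without overlap, and the extremes of fold change and CPM; the others are named for completeness. The result of 1 member is not reported singly here; counts and medians include it. The paper gives 3 mice per genotype for the sequencing, and the labels used here give a genotype and a replicate letter.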

Additional observations from a re-analysis of the deposited data

How the results depend on the processing

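No paired analysis was run, because the labels name no pairs and the control and miDrp1KO libraries share no replicate letter. Over 17 alternatives the median log2 fold change of the members stayed positive, from 0.11 with the length and GC correction to 0.42 with upper quartile scaling, within the spread between miDrp1KO libraries. The number of members called was 0 except with DESeq2, where it was 2 of the 34 members with an adjusted p (4.23% of all genes with one). The number higher at an unadjusted p ran from 4 to 18 when a library was left out (3.21 and 8.55% of all genes) and was 6 with the length and GC correction (3.8%). The number lower at an unadjusted p ran from 0 to 3 when a library was left out (3 without control C, or 7.89% where 5.45% of all genes were), was 3 with the slow fiber score as a covariate (6% of all genes) and 2 with the length and GC correction (9.07%). With a library left out, members higher without overlap ran from 9 without control D (12.3% of all genes) to 20 without miDrp1KO A (20.2%). The number lower without overlap ran from 0 without control B (13.3% of all genes) to 5 without control C (15.6%). It was 0 under upper quartile scaling, with at least 10 counts in every library, and without *Lars2* and the genes for ribosomal RNA. The share of all genes under those settings is not given here. *Dnm1l* kept its direction and passed the threshold with DESeq2, with and without independent filtering (−0.93 in both).

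Of 646 values (38 members under 17 alternatives), 28 changed sign, in 10 members, and 28 members kept their sign under all of them; the cause was not tested. With the length and GC correction the log2 fold change was −0.084 for *Ndufa4l2*, −0.057 for *Ndufa1*, −0.095 for *Ndufa8*, −0.21 for *Ndufb10*, −0.091 for *Ndufb7* and −0.29 for *Ndufs6*. With the slow fiber score as a covariate it was −0.22 for *Ndufa4l2*, −0.16 for *Ndufb10*, 0.039 for *Ndufs5*, −0.17 for *Ndufs6* and −0.035 for *Ndufv3*. With the share of ribosomal RNA as a covariate it was −0.072 for *Ndufa8*, −0.069 for *Ndufab1* and −0.053 for *Ndufb10*. With DESeq2, with and without independent filtering, *Ndufs6* was at −0.014. When a library was left out, values ran from −0.092 to 0.38 for *Ndufs7*, from −0.13 to 0.41 for *Ndufa4l2*, from −0.0055 to 0.22 for *Ndufa8*, from −0.20 to 0.23 for *Ndufb10*, from −0.64 to 0.11 for *Ndufs5*, from −0.16 to 0.16 for *Ndufs6* and from −0.049 to 0.22 for *Ndufv3*. The length and GC correction was chosen after seeing the data. The members had at least 46 counts in every library.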
